A study of Caenorhabditis elegans with 95 samples.

Results

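The late cold phase was compared with the early cold phase in *C. elegans* entrained to temperature cycles. Wild-type Bristol N2 hermaphrodites were grown from the first larval stage to adulthood under warm/cold (WC) cycles of 12 h at 25 °C and 12 h at 15 °C in constant darkness, and RNA from whole adults was hybridized to Affymetrix *C. elegans* Genome Arrays every 4 h on the last day of entrainment. Hour 0 is the start of the warm phase and hour 12 the start of the cold phase. The comparison takes hour 14, after 2 h at 15 °C, and hour 22, after 10 h at 15 °C, in WC series 1, 2, 3, 4 and 6, which gives 10 of the 95 arrays of the study, 5 a side. Each series number marks one time-series experiment and pairs one hour 14 array with one hour 22 array. From the fourth larval stage the animals were kept on FUDR, a drug that blocks DNA synthesis and the development of embryos. The study kept populations under opposing cycles in separate incubators, the labels do not say which population an array came from, and whether the hour 14 and hour 22 animals of a series differed in age by the 8 h between the hours is thus not known, so that time in the cold, any difference in age and time of harvest cannot be told apart within the WC day. Other arrays of the study were set beside it, namely hours 38 and 46 of the following day at constant 15 °C (CC; series 3, 4 and 6, 6 arrays), hours 2 and 10 of the same WC day at 25 °C (10 arrays), and hours 14 and 22 of control animals kept in constant darkness at 18 °C without entrainment (series 4 and 6, 4 arrays).

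*C. elegans* is an ectotherm and its body follows the temperature of the plate. A step down in temperature is known to alter membrane lipid composition, slow metabolism and development, and change the load on protein folding, and the intestine and the hypodermis, which make digestive and detoxification enzymes and the collagens of the cuticle, are large tissues in the adult. No change of temperature separates hours 14 and 22, so the comparison asks which transcripts moved while the temperature was held.

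The deposited value is a score, log2 expression centred on the mean of the same time series for each probe set and then scaled so that every array has mean 0 and variance 1. One unit is 1 SD of an array. A score gives neither an expression level nor a fold change, and scores of different genes cannot be ranked as levels. The arrays measure RNA from whole animals, so that fewer cells of a type and less RNA per cell cannot be told apart. After removal of 77 array controls and of 5206 probe sets that stayed at the floor of the WC arrays, 17342 probe sets were tested. Of these, 16197 have 1 gene symbol, for 13095 genes. Over the probe sets kept, the SD of each of the 10 arrays was 1.14, an equality that follows from the scaling. The median absolute deviation (MAD) over the same probe sets ran from 0.389 (hour 22, series 6) to 0.614 (hour 14, series 4). The differences between hour 22 and hour 14 in one series correlated with those of another with r from 0.0521 (series 1 and 2) to 0.445 (series 3 and 4), over probe sets that share arrays and are not independent.

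Between hours 14 and 22, 69 probe sets rose and 22 fell (limma, Benjamini-Hochberg adjusted p under 0.05, fit to the 30 WC arrays with hour and series as terms), which is 0.398% and 0.127% of those tested and 0.525% together. They stand for 64 and 22 genes. The largest rises were in a pair of neighbouring claudin-like genes, *clc-11* and *clc-32*, and in *hum-6*, an unconventional myosin heavy chain, and the largest falls were in *anmt-3*, of the amine N-methyltransferase family, *cyp-37B1*, a cytochrome P450, and the uncharacterized gene *Y47G6A.3*. The size of the difference among the 91 called probe sets ran from 0.746 to 12.7, with a median of 2.68. Scores of the 5 series did not overlap between the 2 hours for 75 of the 91, against 3.11% of all probe sets kept, and 85 of the 91 moved the same way in every series, against 2722 of the 17342 kept. Both counts are raised by the choice of probe sets with a large difference for its error. The count of 91 became 7, 5 and 7 without series 3, 4 and 6 and 305 without series 1. The 10 arrays alone, paired by series in limma, gave 0 calls after adjustment (1978 at an unadjusted p under 0.05, against 2608 in the fit to 30 arrays).

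**Figure D1:**
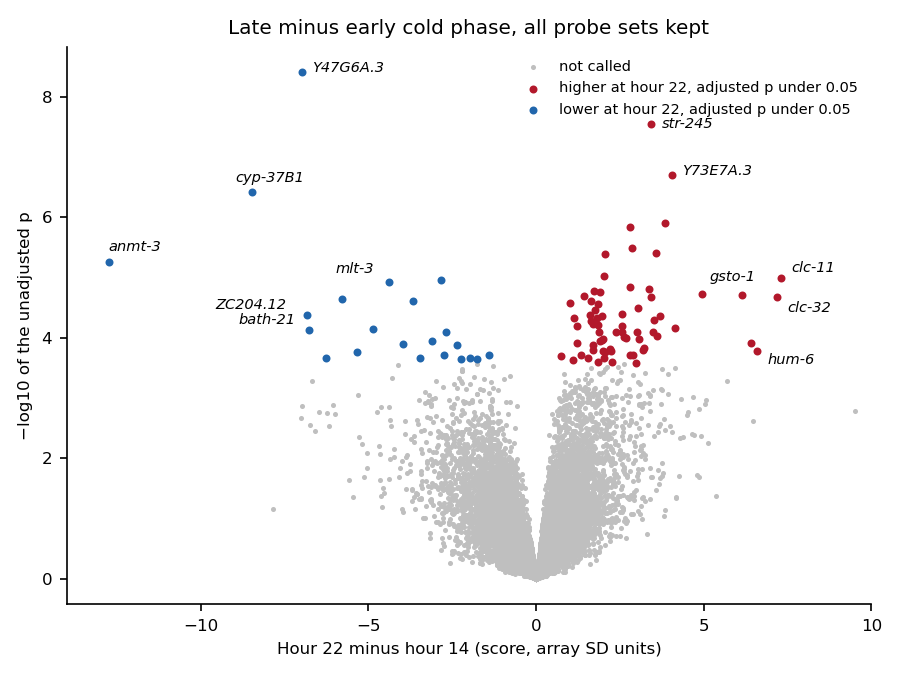
Difference between hour 22 and hour 14 for each of the 17342 probe sets kept (x axis, score in array SD units) against −log10 of its unadjusted p (y axis), with the 69 probe sets called higher at hour 22 in red, the 22 called lower in blue and the others in grey. The falls of *anmt-3*, *cyp-37B1* and *Y47G6A.3* and the rises of *clc-11*, *clc-32* and *hum-6* lie at the 2 ends of the x axis.

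Among the rises, the claudin-like genes moved furthest. Claudins are membrane proteins of cell junctions in animals. For *clc-11*, the scores of series 1, 2, 3, 4 and 6 were -0.66, -2.71, -6.71, -3.63 and -9.54 at hour 14 and 1.14, 2.71, 0.72, 4.37 and 4.26 at hour 22. All 5 early scores were below 0 and all 5 late scores above it, a difference of 7.29 ± 1.28 (adjusted p = 0.0146). Here and below, ± gives the SE of the limma fit, which pools the spread over all hours fitted. It is not the SE of the 5 paired differences. For *clc-32* the scores were -4.21, -3.10, -6.10, -3.94 and -1.74 at hour 14 and 4.28, 3.96, 3.35, -1.55 and 6.74 at hour 22. The late score of series 4 was the only one below 0, yet it lay above every early score, and the difference was 7.17 ± 1.33 (adjusted p = 0.0158). The genes have 0 other protein-coding genes between them in the RefSeq annotation, and whether their probe sets share transcripts was not tested.

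The probe set of *hum-6*, which is of a kind that can match several transcripts (ID ending in _s_at), had scores of -0.05, -0.53, -0.15, -3.96 and -5.08 at hour 14 and 0.07, 10.07, 4.62, 4.5 and 3.88 at hour 22. In series 1 both scores lay within 0.1 of the array floor, and the other 4 series rose by more than 4, a difference of 6.58 ± 1.45 over all 5 (adjusted p = 0.0405). *F42A10.7*, which has no described function here, went from -6.73, -1.14, -3.83, -2.32 and -3.69 to 5.01, 3.66, 1.46, 1.95 and 0.90, so that the signs of the 2 hours were opposite in all 5 series (6.14 ± 1.13, adjusted p = 0.0158). 

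*gsto-1* encodes an omega-class glutathione transferase, an enzyme of the defence against oxidants. Its scores were -4.39, -2.60, -1.93, -2.23 and -4.84 at hour 14 and 2.44, 1.90, 0.34, 2.28 and 1.75 at hour 22, again without overlap (4.94 ± 0.91, adjusted p = 0.0158). *abt-4*, an ABC transporter, went from scores between -2.69 and -0.02 to scores between 0.47 and 3.04 (difference 3.70 ± 0.73, adjusted p = 0.0216). *cpr-8*, a cathepsin B-like cysteine protease, went from -0.46, -3.30, -3.24, -3.02 and -5.92 to -0.35, 1.60, -0.78, 0.63 and 0.60. Its groups overlapped through series 1, which was nearly level (3.53 ± 0.70, adjusted p = 0.0229).

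*Y73E7A.3* and *C55A1.6* had the smallest SE of the named rises. Early scores of *Y73E7A.3* were -0.48, -2.47, 0.06, -0.76 and -0.48 and late scores 2.01, 2.67, 3.5, 4.03 and 3.87 (difference 4.04 ± 0.54, adjusted p = 0.00116). *C55A1.6* was below its series mean at both hours, at -3.73, -3.48, -4.24, -5.73 and -4.91 early and -0.42, 0.05, -1.03, -0.48 and -0.97 late, with series 2 just above 0 at hour 22 (3.84 ± 0.58, adjusted p = 0.00413). The other rises named by rule were *Y71G12B.32* (4.14 ± 0.85), *C39H7.4* (3.57 ± 0.58), *dbd-17* (3.44 ± 0.64) and *ifg-1* (3.60 ± 0.75), with adjusted p between 0.00774 and 0.0302. *ifg-1* encodes the eIF4G scaffold of translation initiation. A second probe set for it differed by 0.04 ± 0.46 (adjusted p = 0.985), so that the rise was seen in 1 of its 2 probe sets.

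**Figure D2:**
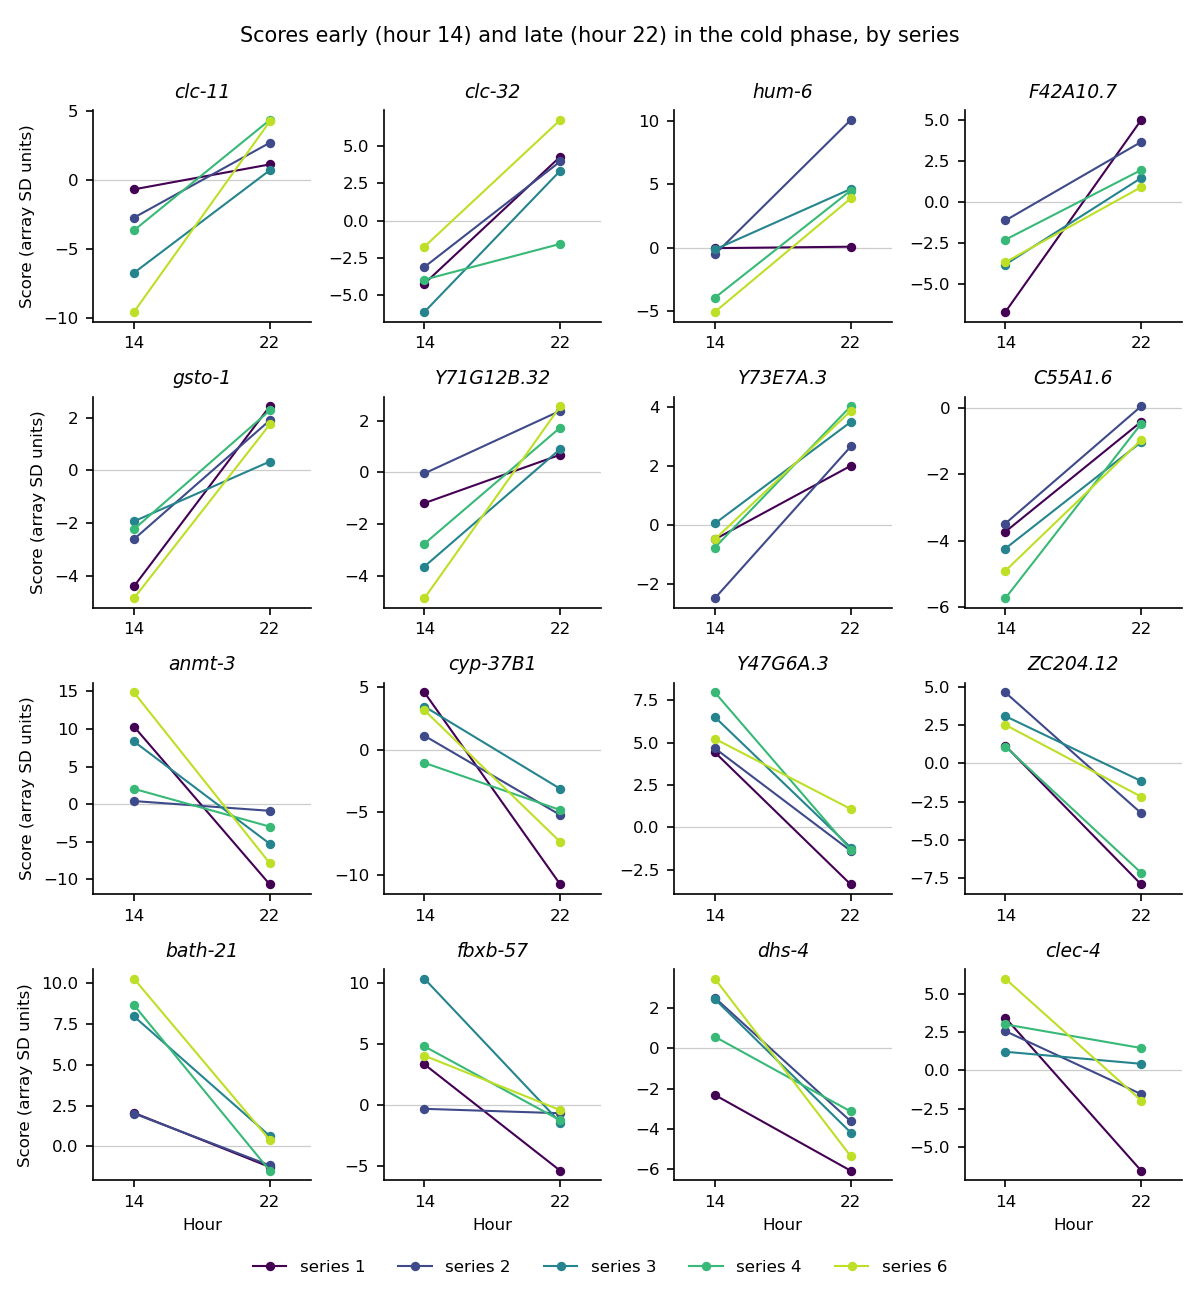
Scores of the 8 largest rises and the 8 largest falls among the named genes at hours 14 and 22 (x axis), one line per series (y axis, score in array SD units, with its own range in each panel). The 5 lines of a panel slope the same way, *hum-6* is nearly level in series 1, and *anmt-3* and *fbxb-57* are nearly level in series 2.

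Among the falls, *anmt-3* had the largest difference of all probe sets kept. Its scores were 10.31, 0.40, 8.34, 2.03 and 14.86 at hour 14 and -10.71, -0.90, -5.29, -3.0 and -7.89 at hour 22. Series 2 and 4 changed less than series 1, 3 and 6. The fall was 12.7 on the score scale with an SE of the fit of 2.14 (difference -12.75, adjusted p = 0.00948). *cyp-37B1* had scores of 4.56, 1.11, 3.44, -1.05 and 3.14 at hour 14 and -10.73, -5.20, -3.12, -4.80 and -7.35 at hour 22. Cytochrome P450 enzymes oxidize lipids and foreign compounds. The difference of -8.48 ± 1.19 (adjusted p = 0.00166) was called without series 3 or 4 but not without series 6.

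*Y47G6A.3* had the lowest p of the comparison. Its scores were 4.42, 4.66, 6.5, 7.95 and 5.22 early and -3.36, -1.39, -1.19, -1.33 and 1.08 late, with a gap of more than 3 between the groups (difference -6.99 ± 0.74, adjusted p = 6.81e-05), and it was the only named gene called without any single series. *ZC204.12*, of no described function here, fell from scores between 1.10 and 4.63 to scores between -7.91 and -1.16 (-6.82 ± 1.34, adjusted p = 0.0216). *dhs-4*, a short-chain dehydrogenase, fell from -2.32, 2.49, 2.42, 0.56 and 3.43 to -6.07, -3.62, -4.18, -3.13 and -5.35 (-5.79 ± 1.08, adjusted p = 0.0164, an _s_at probe set). Its second probe set differed by -6.74 ± 2.00 (adjusted p = 0.111), with -19.5 in series 6 alone.

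A pair of genes for adaptors of ubiquitin ligases stood among the largest falls. *bath-21* encodes a protein with BTB and MATH domains, and its scores went from 2.05, 2.01, 7.95, 8.64 and 10.24 to -1.26, -1.16, 0.63, -1.49 and 0.39. *fbxb-57*, an F-box gene, went from 3.34, -0.30, 10.35, 4.81 and 4.06 to -5.38, -0.66, -1.42, -1.25 and -0.41. Series 1 and 2 of *bath-21* and series 2 of *fbxb-57* were low at hour 14 next to the other series. The differences were -6.76 ± 1.39 (adjusted p = 0.0271) and -6.28 ± 1.42 (adjusted p = 0.0448). The remaining named falls were *clec-4*, a C-type lectin (-4.87 ± 1.00), *mlt-3*, a gene known from moulting defects (-4.37 ± 0.78), *parg-2*, a poly(ADP-ribose) glycohydrolase (-3.97 ± 0.86), *ztf-9*, a zinc finger protein (-3.68 ± 0.69), and *ceh-74*, a homeobox gene (-3.46 ± 0.78), with adjusted p between 0.0146 and 0.0447. The 2 hours of *clec-4* overlapped, since series 4 was at 1.45 late and series 3 at 1.21 early.

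The called probe sets moved through hour 18. The mean score at hour 18 lay between those at hours 14 and 22 for 87 of the 91 (95.6%), against 46.9% of all probe sets kept, a share that the choice of probe sets with a large difference raises. Taken alone, hour 18 minus hour 14 gave 2 calls and hour 22 minus hour 18 gave 0 (1437 and 609 at an unadjusted p under 0.05, limma). The median of the 69 rises was 0.312 at hour 2, -0.358 at hour 6, -0.457 at hour 10, -1.05 at hour 14, 0.564 at hour 18 and 1.09 at hour 22. Hour 14 was the lowest of the 6 hours for 49 of the 69 and hour 22 the highest for 59, counts that the choice of rises from hour 14 to hour 22 favours (2661 and 3238 of all 17342 probe sets kept). For the 22 falls the medians were 0.151, 0.853, 0.643, 1.96, -0.134 and -1.46, with hour 14 highest for 12 and hour 22 lowest for 15, likewise favoured by their choice (3087 and 2725 of all kept).

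**Figure D3:**
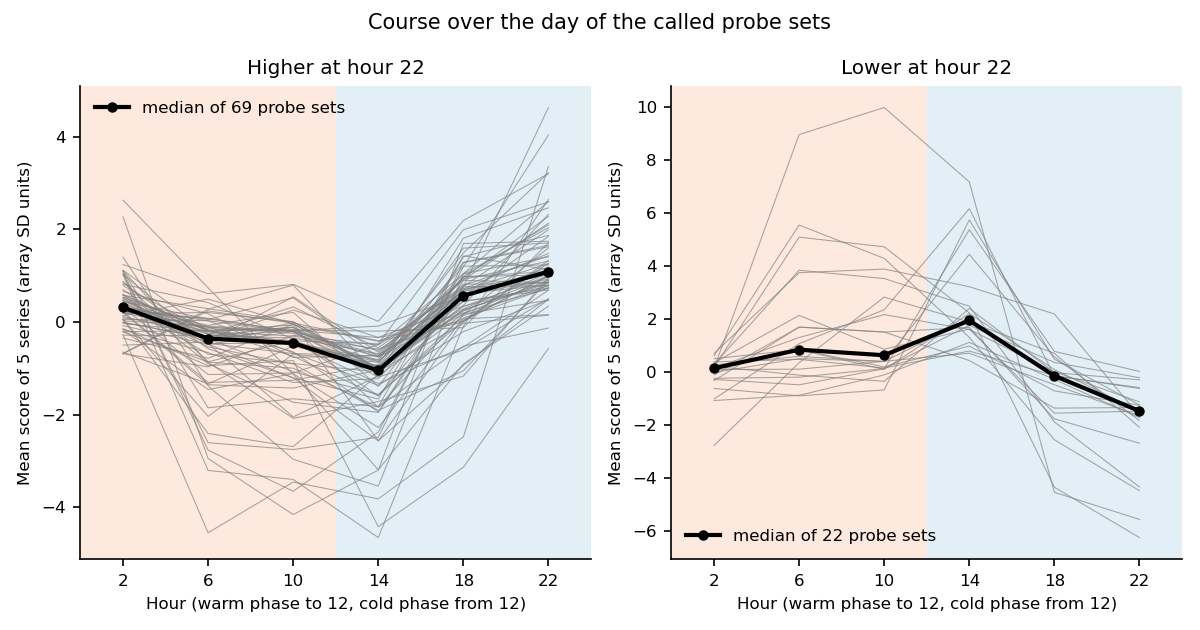
Mean score of the 5 WC series (y axis, array SD units) at the 6 hours of the day (x axis) for the 69 probe sets called higher and the 22 called lower at hour 22, thin lines, with their median as a thick line; the warm phase is shaded red and the cold phase blue. The median of the rises is lowest at hour 14 (-1.05) and that of the falls highest there (1.96).

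Within these medians the courses differed. A first kind of fall was already high in the warm phase. *anmt-3* stood at 8.97 at hour 6, 10.0 at hour 10 and 7.19 at hour 14 before it reached -4.53 at hour 18, and *cyp-37B1* at 5.10, 4.74, 2.24 and -4.34. *dhs-4*, *ZC204.12*, *clec-4* and *mlt-3* had means above 1 at hours 6 and 10 too, as had 9 of the 22 falls in all. A second kind was highest at hour 14. *Y47G6A.3* had means of -0.89 at hour 6, -0.67 at hour 10, 5.75 at hour 14 and 0.49 at hour 18. *bath-21* reached 6.18 at hour 14 after 1.08 at hour 6 and 2.36 at hour 10, and was thus of both kinds. *fbxb-57* reached 4.45 at hour 14 after 0.41 at hour 10. The hour 14 mean was the highest by more than 1 for 9 of the 22 falls. Among the rises, *gsto-1* was low throughout hours 6, 10 and 14 (-2.95, -4.16 and -3.20), high at hours 18 and 22 (1.69 and 1.74) and also high at hour 2 (2.27). 12 of the 69 rises were below -1 at both warm hours 6 and 10. *C55A1.6* was instead lowest at hours 14 and 18, at -4.42 and -3.13. Its means were -0.94 at hour 6, -0.83 at hour 10 and -0.57 at hour 22. For 11 of the 69 rises the hour 14 mean was lowest by more than 1. 52 of the 69 had a mean above 0 at hour 2.

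Gene lists were read from 1 probe set per gene, chosen by its ID, in the same fit. Over all 13095 genes, 54 rose (0.412%) and 20 fell (0.153%), and at an unadjusted p under 0.05 7.15% were higher and 7.87% lower. The median difference over all genes was 0.009. Lists were described by these shares and by their medians, without a test of the list.

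Cytochrome P450 enzymes held called genes in both directions. Of 63 kept, *cyp-33A1* (2.56 ± 0.52, adjusted p = 0.0259) and *cyp-36A1* (3.02 ± 0.62, adjusted p = 0.0271) rose, and *cyp-37B1* and *cyp-35C1* (-3.10 ± 0.66, adjusted p = 0.0333) fell. *cyp-35C1* had scores of 1.16, 1.06, 2.71, 0.54 and 2.68 at hour 14 and -1.52, -1.55, -3.04, -0.60 and -0.62 at hour 22, positive early and negative late in each series. A second probe set for it, of the _s_at kind, was at -2.10 ± 0.56 (adjusted p = 0.0814) and its hours overlapped. The median of the list was 0.016, close to that of all genes. In the other enzyme families of detoxification, *gsto-1* was the only call among 39 glutathione S-transferases, 0 of 56 UDP-glucuronosyltransferases and 0 of 5 flavin monooxygenases were called, and 0 of 29 short-chain dehydrogenases by the probe set used for lists. At an unadjusted p under 0.05, 4 and 8 UDP-glucuronosyltransferases were higher and lower.

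ABC transporters, which move lipids, drugs and peptides across membranes, lay higher late in the cold phase. 11 of 44 were higher and 2 lower at an unadjusted p under 0.05, and 35 of 44 differences were above 0, with a median of 0.493 and series medians from 0.002 (series 6) to 0.534 (series 3). Only *abt-4* passed the adjusted test. *mrp-6* (3.86 ± 1.17), *pmp-1* (1.5 ± 0.47) and *pgp-3* (1.70 ± 0.54) followed, with adjusted p between 0.12 and 0.13. The proton pump of acidic organelles, the vacuolar ATPase, had 16 of 19 differences above 0 and 6 higher and 0 lower at an unadjusted p under 0.05. *vha-16* rose (1.23 ± 0.26, adjusted p = 0.0345). Its scores went from -0.06, -1.65, -0.56, -0.79 and -0.73 to 0.50, 0.86, 0.60, 0.28 and 0.10, all 5 below 0 early and above 0 late. *vha-5* (1.54 ± 0.40, adjusted p = 0.08), *vha-20* (0.77 ± 0.24) and *vha-11* (0.87 ± 0.28) did not pass. The median was 0.371 and the series medians 0.078 to 0.741.

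Digestive and defence genes of the intestine were higher at hour 22 in several members. Of 48 intestinal proteases and phosphatases, *cpr-8* and *cpr-4* rose, 10 were higher and 3 lower at an unadjusted p under 0.05, and the median was 0.347 (series medians 0.044 to 0.499). *cpr-4*, another cathepsin B-like protease, had scores of -0.74, -1.41, -1.35, -2.92 and -2.78 early and -0.76, 0.34, -0.06, 0.19 and -0.36 late. Series 1 was level, and the difference was 1.71 ± 0.37 (adjusted p = 0.0347). *asp-17*, an aspartyl protease (4.69 ± 1.23, adjusted p = 0.081), and *cpr-5* (2.56 ± 0.73, adjusted p = 0.097) did not pass. Of 76 lysozymes, saposin-like and other antimicrobial genes, 14 were higher and 5 lower at an unadjusted p under 0.05, with a median of 0.324. *irg-3*, an infection response gene, rose (1.69 ± 0.37, adjusted p = 0.04), while *lys-4* (1.65 ± 0.39, adjusted p = 0.055) and *spp-18* (0.80 ± 0.22, adjusted p = 0.089) did not pass. Of 125 C-type lectins, 15 were higher and 3 lower at an unadjusted p under 0.05, with a median of 0.052, and the 1 call was the fall of *clec-4*. Beside these lists, 13 of 15 marker genes of the intestine had differences above 0 with a median of 0.14, their array medians ran from -0.135 to 0.126 at hour 14 and from -0.033 to 0.147 at hour 22, and 0 were called. The part of intestinal RNA content in these lists was not tested.

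Cuticle collagens lay higher at hour 22 without a single call. 99 of 121 numbered collagens had differences above 0, 25 were higher and 0 lower at an unadjusted p under 0.05, and the median was 0.615. Series 1, 3 and 4 had medians of 0.724, 0.906 and 0.629, series 2 had 0.171 and series 6 was at -0.087. The lowest p were those of *col-184* (0.86 ± 0.26, adjusted p = 0.12), *col-156* (2.60 ± 0.90), *col-142* (2.14 ± 0.75) and *col-125* (0.82 ± 0.30). Of 20 collagens that set body shape, 16 were above 0 with a median of 0.664, among them *lon-3* (3.44 ± 1.38, adjusted p = 0.23), *dpy-4* (0.87 ± 0.36) and *dpy-7* (1.13 ± 0.51, adjusted p = 0.296). In CC the median differences of the 2 collagen lists were -0.367 and -0.277, and from hour 2 to hour 10 they were -0.564 and -0.434. In the controls, from hour 14 to hour 22, they were -0.041 for the numbered and 0.369 for the body-shape collagens. Markers of the hypodermis and seam also lay higher, with 8 of 9 above 0, a median of 0.618 and array medians of -0.701 to 0.313 at hour 14 against 0.082 to 0.804 at hour 22, and the part of hypodermal RNA content was not tested. Some of these markers are collagens (*col-19*, *dpy-7*, *rol-6* and *bli-1*). Among 100 moulting and cuticle genes *mlt-3* was the only call, and among 62 hedgehog-related and patched-related genes *ptr-24* was (1.71 ± 0.34, adjusted p = 0.0255).

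Among the lists of the germ line, the meiotic chromosome genes had the most members lower at hour 22 at an unadjusted p under 0.05. Of 32, 10 were lower and 0 higher at that threshold, with a median of -0.752. The lowest p were those of *zim-2*, which serves pairing centres (-2.37 ± 0.73, adjusted p = 0.12), *syp-1*, a protein of the synaptonemal complex (-1.88 ± 0.62), *lab-1* (-1.44 ± 0.48) and *dsb-3* (-1.45 ± 0.50), and 0 were called. The shift came from series 2 (-1.38) and series 4 (-1.49), while series 1, 3 and 6 had medians between -0.181 and 0.031. The list of 60 oocyte, eggshell and maternal genes had 1 higher and 1 lower and a median of -0.05. Of 74 sperm genes, 3 were lower (4.1%, below the 7.87% of all genes) and 1 higher, although 57 differences were at or below 0 and the median was -0.459, with series medians of -0.924 to 0.104. In series 1 and 4 the medians (0.036 and 0.104) were near the shift of the array floor between the hours (0.0355 and 0.1). Of the sperm markers, 1 of 9 was above 0, their median was -0.839, and their array medians ran from -0.861 to 4.46 at hour 14 and from -2.12 to 1.02 at hour 22. Oocyte markers had 3 of 12 above 0 and a median of -0.099, and early embryo markers 4 of 10 and -0.251. The part of germ line, sperm and embryo content in these lists was not tested. Of 55 zygotic embryo genes 7 were lower and 2 higher, with *sdz-6* (-4.11 ± 0.95, adjusted p = 0.053) nearest to a call and a series 4 median of -0.875 beside -0.080 to 0.042 in the others.

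F-box genes, for substrate adaptors of ubiquitin ligases, lay lower at hour 22. Of 242 kept, 39 were lower and 6 higher at an unadjusted p under 0.05, 65 were above 0, and the median was -0.603. Series 3 and 4 had medians of -0.495 and -0.903, series 1 had -0.166, and series 2 and 6 were at -0.010 and 0.010. The median of series 6 was near the shift of its array floor (0.0103). *fbxb-57* and *fbxa-193* fell. The scores of *fbxa-193* were -0.26, 3.33, 3.38, 2.23 and 3.37 at hour 14 and 0.36, -0.59, -0.51, -0.07 and -0.61 at hour 22, so that series 1 went the other way (-2.70 ± 0.56, adjusted p = 0.0271). *fbxa-82* (-2.34 ± 0.59) and *fbxa-166* (-3.20 ± 0.83) had adjusted p of 0.08. The F-box median was -0.756 in CC, -0.016 from hour 2 to hour 10 and -0.119 in the controls. Of 75 MATH and BTB domain genes, 10 were lower and 2 higher, *bath-21* was the only call and the median was -0.272, again carried by series 4 (-0.470, others between -0.002 and 0.013).

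**Figure D4:**
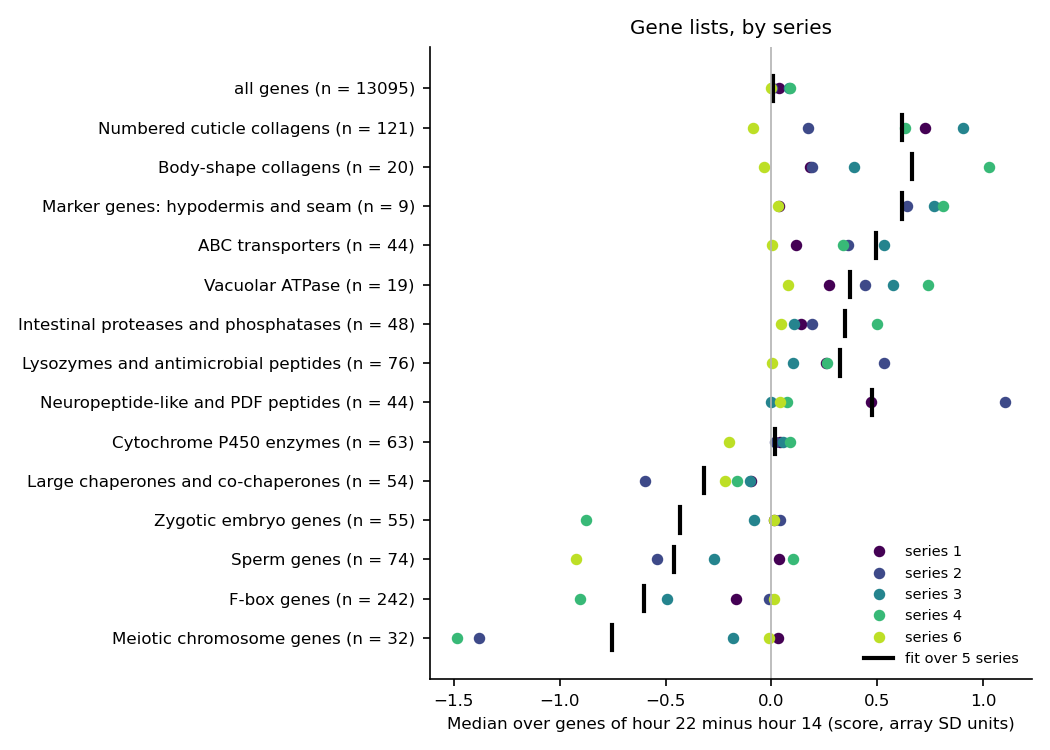
Median over the genes of a list of the difference between hour 22 and hour 14 (x axis, score in array SD units) in each series (coloured points) and as fitted over the 5 series (black bars), for all genes and 14 gene or marker lists, with the number of genes kept. The vacuolar ATPase median is above 0 in all 5 series and that of large chaperones below 0 in all 5, while the meiotic median is carried by series 2 and 4; the fitted bar is the median of gene-wise fits and can lie outside the middle of the series medians.

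Genes of protein folding and of the adaptation to cold were examined because the hours lie in a cold phase. Of 54 large chaperones and co-chaperones, 10 were lower and 2 higher at an unadjusted p under 0.05, 13 were above 0, and the median was -0.32, below 0 in all 5 series (-0.598 to -0.095). The J-domain genes *dnj-10* (-2.20 ± 0.52, adjusted p = 0.06), *dnj-17* (-1.83 ± 0.56) and *dnj-18* (-2.0 ± 0.67) had the lowest p, and 0 were called. The small heat shock genes *hsp-16.41* (-3.99 ± 1.44) and *hsp-16.2* (-3.04 ± 1.17) were lower and *hsp-12.6* higher (1.83 ± 0.67), with adjusted p from 0.19 to 0.22. Fatty acid desaturases, which set the fluidity of membranes in the cold, gave 0 calls of 7, with *fat-6* at -0.82 ± 0.30 (adjusted p = 0.2) and *fat-1* at 0.43 ± 0.19 (adjusted p = 0.28). Of 12 regulators of membrane adaptation, 10 were above 0 with a median of 0.313, led by *sbp-1*, the SREBP homolog (1.42 ± 0.44, adjusted p = 0.13), and *paqr-2*, an adiponectin receptor homolog needed for growth in the cold, was at 1.42 ± 0.79 (adjusted p = 0.41). Elongases gave 0 calls of 8, with *elo-6* at -0.85 ± 0.32.

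In metabolism, the 23 genes of peroxisomal β-oxidation gave 5 higher and 1 lower at an unadjusted p under 0.05. *acox-1.6*, an acyl-CoA oxidase, was at 4.16 ± 0.97 (adjusted p = 0.055), and *dhs-28*, a dehydrogenase of the pathway, was at 1.16 ± 0.29 (adjusted p = 0.08) by the probe set used for lists and rose by another (1.01 ± 0.19, adjusted p = 0.0172). Series medians of the list ran from -0.634 to 0.946. Of 24 genes of the TCA and glyoxylate cycle 4 were higher and 0 lower, with *suca-1* at 0.98 ± 0.26 (adjusted p = 0.082). Respiratory chain and ATP synthase genes gave 0 higher and 6 lower of 63, with *nduf-2.2* at -0.76 ± 0.25 (adjusted p = 0.15) and a median of -0.021. Lipases gave 3 higher and 0 lower of 23, with *lips-16* at 4.33 ± 1.15 and *lipl-1* at 1.66 ± 0.47 (adjusted p of 0.081 and 0.099). The 5 vitellogenins, the yolk proteins, had differences between -0.33 (*vit-1*) and 0.07, 0 at an unadjusted p under 0.05. Glycolysis gave 0 of 19 at that threshold. Cytosolic ribosomal proteins had 51 of 60 differences above 0 but a median of only 0.073, and 1 was higher at an unadjusted p under 0.05 (*rpl-23A.1*, 0.38 ± 0.18).

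Neuronal genes gave single calls. *str-245*, a predicted chemoreceptor, had scores of -2.67, -2.56, -1.15, -1.44 and -1.36 at hour 14 and 1.26, 2.29, 0.37, 2.63 and 1.43 at hour 22. All series were negative early and positive late, and with 3.43 ± 0.41 it had the second lowest p of the comparison (adjusted p = 0.000246). It was the only call among 180 seven-transmembrane chemoreceptors, whose median of 0.05 and series medians of 0.010 to 0.103 were those of the array floor, which moved by 0.0103 to 0.105 between the 2 hours. *acr-12*, an acetylcholine receptor subunit of motor neurons, was at 0.05, -0.11, -0.66, -0.20 and -0.07 early and at 0.08, 2.14, 2.81, 2.62 and 0.87 late (1.90 ± 0.35, adjusted p = 0.0158), with series 1 at the floor at both hours. Of 44 neuropeptide-like genes 7 were higher and 0 lower at an unadjusted p under 0.05, with a median of 0.476 that rested on series 1 (0.473) and series 2 (1.10) beside -0.004 to 0.072 in the others. *nlp-36* (0.81 ± 0.27, adjusted p = 0.158), *nlp-53* (1.88 ± 0.67) and *nlp-7* (0.77 ± 0.28) led them and did not pass. Neuron markers had 7 of 12 above 0, a median of 0.128 and array medians of -0.227 to 0.266 at hour 14 and -0.055 to 0.272 at hour 22. Outside the neuronal lists, *nhx-4*, a sodium/proton exchanger, was the only call of 70 aquaporin and ion transport genes (1.74 ± 0.32, adjusted p = 0.0158).

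Homologs of clock genes were followed as genes of the study's own question. Of 22 clock gene homologs and relatives 3 were higher, 2 lower and 0 called. *lin-42*, the homolog of period, differed by 0.29 ± 0.59 and 0.04 ± 0.29 in 2 probe sets, *tim-1* by -1.33 ± 0.75 (adjusted p = 0.422), *aha-1* by -1.17 ± 0.61 and -0.91 ± 0.72, and *atf-2* by -0.82 ± 1.00. The bZIP gene *zip-11* had the lowest p of the list (1.78 ± 0.50, adjusted p = 0.096). Among other genes that the study followed on arrays, *F23F12.3* rose in 2 of its 3 probe sets (6.41 ± 1.38 and 3.36 ± 0.61, adjusted p of 0.0345 and 0.0158) and was at 3.65 ± 1.12 in the third (adjusted p = 0.124). In the probe set with the largest difference its scores were -0.81, -1.97, -3.30, -2.80 and -3.01 early and 2.78, 7.96, -0.48, 5.13 and 4.78 late. That difference lay between those of *hum-6* and *F42A10.7*, and the gene was ranked by its probe set of lowest p. *ceeh-1*, an epoxide hydrolase, was at -1.42 ± 0.37 and -1.45 ± 0.49 (adjusted p of 0.08 and 0.158), and *acs-2*, an acyl-CoA synthetase, at -2.58 ± 1.57 and -1.67 ± 1.61 (adjusted p of 0.457 and 0.682).

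Some further called genes have known roles and were picked after their values were seen. Besides *cpr-8* and *cpr-4*, rises were called for the peptidases *pcp-3* (2.79 ± 0.63), *dpf-2* (2.38 ± 0.49), *lap-1* (1.42 ± 0.26) and *ctsa-4.2* (1.21 ± 0.25) and for the peptide transporter *pept-2* (1.86 ± 0.35). *mnr-1*, which encodes the hypodermal protein menorin that guides dendrite branching, rose by 2.86 ± 0.46 (adjusted p = 0.00774), *npr-5*, a neuropeptide receptor, by 3.06 ± 0.65, *snf-3*, a betaine transporter, by 1.99 ± 0.44, and *itr-1*, the inositol trisphosphate receptor, by 1.98 ± 0.39. *endu-2* and *ntfc-1* each rose in 2 probe sets (2.62 and 1.89, and 2.04 and 1.63). Among the falls were 2 mitochondrial ribosomal proteins, *mrpl-28* (-2.24 ± 0.51) and *mrpl-10* (-1.42 ± 0.32), and the α-mannosidase gene *aman-1* (-2.84 ± 0.50, adjusted p = 0.0146). *K06A5.3* had scores of 0.05, 4.32, 5.04, 6.75 and 10.75 at hour 14 and 0.08, -0.74, -1.14, -1.22 and 3.17 at hour 22, and it was at the floor of both arrays of series 1.

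Whether the same hours differed on the day after, at constant 15 °C, was asked with CC. Hour 46 minus hour 38 gave 0 calls in 3 series (limma, 1196 at an unadjusted p under 0.05). It was taken from a joint fit with the WC arrays, whose spread entered its p and SE. The difference between WC and CC differences, in a joint fit of both days, was called for 0 of 17342 probe sets (0.00%; limma, 1187 at an unadjusted p under 0.05). Of the 91 probe sets called in WC, 51 (56.0%) had a CC difference of the same sign, against 58.8% of all probe sets kept. By direction these were 34 of the 69 rises (49.3%) and 17 of the 22 falls (77.3%), a split that was not tested. The median CC difference was -0.008 for the 69 rises and -0.572 for the 22 falls. *clc-11* was at -1.37 ± 1.66 in CC, *clc-32* at -3.38 ± 2.58, *gsto-1* at -0.54 ± 1.24, *anmt-3* at -0.25 ± 2.63 and *cyp-37B1* at -0.57 ± 1.5. *dhs-4* (-2.52 ± 1.32), *ZC204.12* (-2.41 ± 1.88) and *Y47G6A.3* (-1.82 ± 0.98) were negative in CC too. None of the 25 named genes passed the test of the WC against CC difference (adjusted p 0.131 to 0.764), and 3 of the 18 CC arrays stand for pools of 2 biological replicates. A p that misses the threshold does not show that the days were alike.

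**Figure D5:**
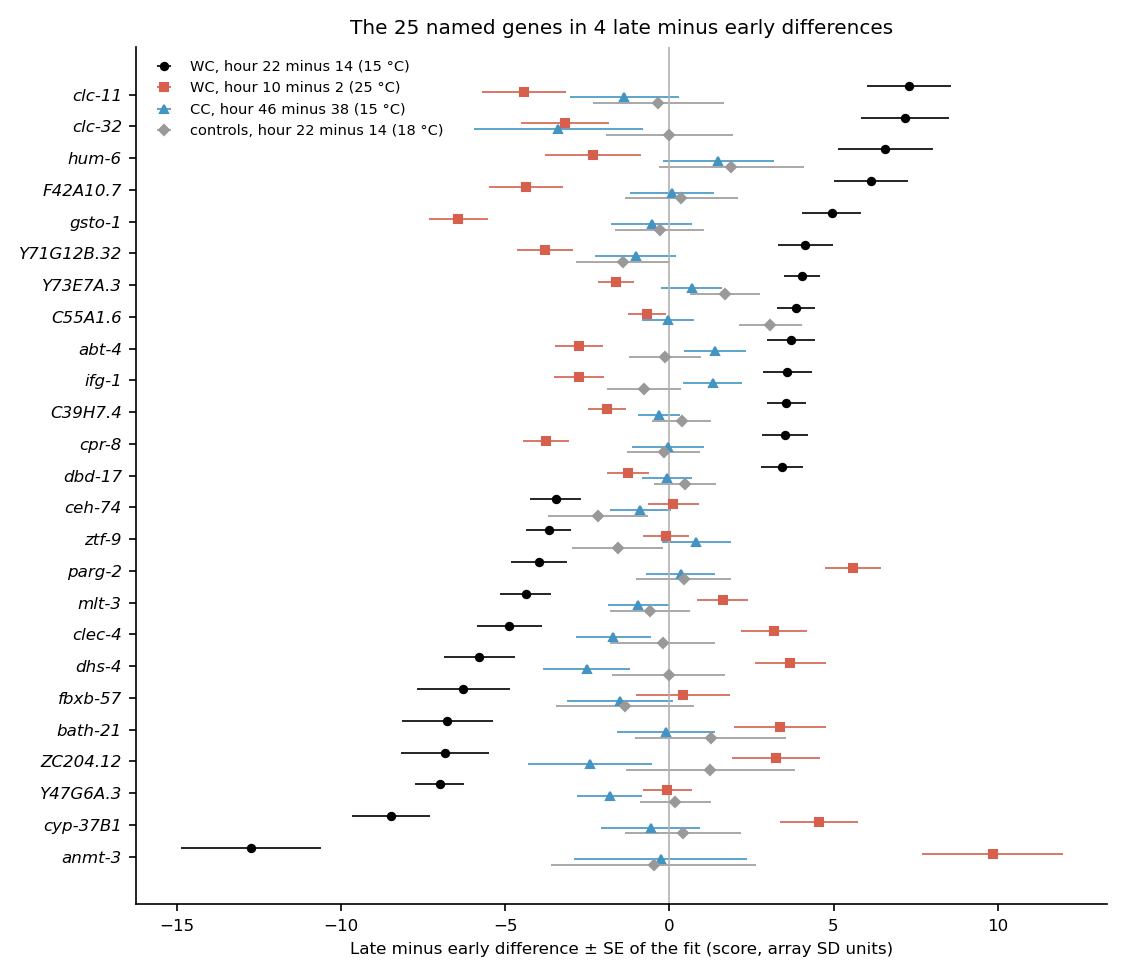
Late minus early difference of the 25 named genes (x axis, score in array SD units, ± SE of the fit) in WC from hour 14 to 22, WC from hour 2 to 10, CC from hour 38 to 46 and the controls from hour 14 to 22. The named genes were chosen on the first of these. From hour 2 to 10, 23 of the 25 lie on the other side of 0, as any score with an even daily course would.

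The cold phase was also compared with the warm phase of the same day. From hour 2 to hour 10, after 2 h and 10 h at 25 °C, 76 probe sets rose and 37 fell, and the change in the cold phase differed from that in the warm phase for 259 probe sets (1.49% of those tested), of which 150 had the higher difference in the cold phase. Without series 4 or 6 the count was 43 or 57, and without series 3 it was 108. The 91 probe sets called in the cold phase mostly had the opposite sign in the warm phase. Only 14 (15.4%) had the same sign there, against 54.1% of all probe sets kept. Hours 2 and 10 lie 12 h before hours 14 and 22. A score that rises and falls evenly once a day thus changes in opposite directions in the 2 phases. The comparison therefore cannot tell a change particular to the cold phase from a part of a daily course. The median warm-phase difference was -0.804 for the 69 rises and 0.741 for the 22 falls. *gsto-1* was at -6.42 ± 0.91 from hour 2 to 10 beside 4.94 from hour 14 to 22, *anmt-3* at 9.85 ± 2.14 beside -12.75, *cyp-37B1* at 4.55 ± 1.19 (adjusted p = 0.0778) beside -8.48, and *parg-2* at 5.60 ± 0.86 beside -3.97. *Y47G6A.3* (-0.06 ± 0.74), *ztf-9* (-0.10 ± 0.69), *ceh-74* (0.12 ± 0.78) and *fbxb-57* (0.41 ± 1.42) were near 0 in the warm phase. Of the 91, 61 passed the test of the difference between phases, a count that shares the cold-phase difference with the choice of the 91. Any even daily course raises it too.

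Control animals at 18 °C, which saw no cycle, served for the passage of the same hours. The paper reports such controls beside its light/dark experiments. Their series numbers 4 and 6 thus need not mark the same experiments as WC series 4 and 6. Their own hour 22 minus hour 14 gave 37 calls, 23 higher and 14 lower. The WC difference differed from theirs for 5 probe sets (0.0288%; limma, 933 at an unadjusted p under 0.05), 1 of them among the 91, *Y47G6A.3*, at 0.18 ± 1.08 in the controls (adjusted p of the difference 0.0308). Of the 91, 54 (59.3%) had the same sign in the controls, against 59.4% of all probe sets kept, with medians of 0.203 for the rises and -0.120 for the falls. *C55A1.6* was at 3.07 ± 0.96 in the controls, near its WC value of 3.84, whereas *clc-32* was at 0.00 ± 1.93 and *gsto-1* at -0.30 ± 1.34. With 2 control series the count was unstable. It was 343 without control series 4 and 333 without control series 6, when a single control series was left and its spread was taken from the WC arrays.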

How the data were processed

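The authors hybridized RNA of whole adults to Affymetrix arrays and computed log2 expression by GCRMA (R 2.7.1), centred it on the mean of each time series and scaled every array to mean 0 and variance 1. The deposited value is therefore a score in units of array SD, and the values used here hold no intensities or levels. Precision is limited by the 5 series. Samples were grouped by condition and hour from the labels.

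Probe sets with a root mean square distance under 0.1 from the floor (the median of the densest 5% of an array's scores) over the 30 WC arrays were left out. The WC arrays were fitted in limma (version 3.58.1, R 4.3.3) with hour and series as terms. They were fitted jointly with the 18 CC or the 11 control arrays for the differences between conditions. The differences within CC and within the controls came from these joint fits too. The p values were moderated, two-sided, adjusted by the Benjamini-Hochberg method over all probe sets kept and called under 0.05. The code of the fit was tested on simulated scores with independent normal noise. Those scores lack the centring and scaling of the deposited ones. Tables and figures used Python 3.11.15, pandas 2.3.3, numpy 2.4.6 and matplotlib 3.10.9.

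Series numbers pair the arrays because each marks 1 time-series experiment. Deviations from the hour means correlated between hours 14 and 22 of a series with r of -0.173 to 0.15, values lowered by the centring of each series. Series are separate experiments by the labels. Because series is a term of the fit, differences in level between series are taken out. The p values rest on the spread that remains, pooled over all hours fitted, the warm hours of the WC day included. They do not rest on the spread of the paired differences between hours 22 and 14 alone. No 2 WC arrays correlated above 0.635.

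Of 22548 probe sets, 20766 have 1 symbol in the platform annotation, 887 several and 895 none. Named genes, each taken by its probe set of lowest p, are the 12 largest rises and falls among called genes that moved the same way in all 5 series, the 8 largest each way with a gene-class name, up to 4 members of each list by lowest p, and genes whose array course the study followed. In lists each gene has 1 probe set, chosen by ID. The comparison, the members and the gene lists were chosen with earlier results of these data known. Alternatives left out series, changed the filter, arrays, block, normalization or moderation. Promoter motifs were not analysed here.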

Additional observations from a re-analysis of the deposited data

Results flagged for a closer look

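For 22 of the 25 named genes the change from hour 14 to 22 differed from that from hour 2 to 10 of the same WC day (adjusted p under 0.05 for the difference between the changes, limma). The difference between the 2 changes was 11.7 for *clc-11*, 10.3 for *clc-32*, 8.90 for *hum-6*, 10.5 for *F42A10.7*, 11.4 for *gsto-1*, 7.93 for *Y71G12B.32*, 5.66 for *Y73E7A.3*, 4.53 for *C55A1.6*, 6.45 for *abt-4*, 6.34 for *ifg-1*, 5.47 for *C39H7.4*, 7.28 for *cpr-8* and 4.71 for *dbd-17*. Among the falls it was -9.58 for *parg-2*, -5.99 for *mlt-3*, -8.06 for *clec-4*, -9.47 for *dhs-4*, -10.1 for *bath-21*, -10.1 for *ZC204.12*, -6.93 for *Y47G6A.3*, -13 for *cyp-37B1* and -22.6 for *anmt-3*. These genes were named for a large change in the cold phase, which enters the difference. The hours of the 2 changes lie 12 h apart, so that an even daily course also makes the difference large. Passing thus does not set the cold phase apart from a daily course. *Y47G6A.3* also differed between WC and the controls, by -7.17.

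One array stood apart from the other 4 of its hour for 2 of the 25 genes. *C39H7.4* was at 2.23 in series 2 at hour 22, above the other series, and *fbxb-57* at -5.38 in series 1 at hour 22, below them. Over 25 genes and 2 hours such gaps arise by chance in about 1 of 20 groups.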

How the results depend on the processing

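The count of 91 called probe sets was 0 with only the 10 arrays of hours 14 and 22, 40 with only the 15 cold-phase arrays (20 of them among the 91), and between 5 and 305 without one series. Without the replicate block it was 128, although each series had already been centred by the authors. It was 65 without the filter, 91 with a floor distance of 0.2, 100 after quantile normalization, 69 after median centring and MAD scaling, 88 with robust moderation and 62 with array weights. All 25 named genes lost their call in the fit to 10 arrays (adjusted p 0.268 to 0.402), 18 lost it with 15 arrays, and 21, 22 and 24 without series 3, 4 and 6.

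The count for WC against CC was 0, and 2 without the replicate block, 7 in the series that have both days, 6 without the pooled arrays and 0 to 11 without one series. The count for the cold against the warm phase was 259, and 343 without the replicate block, 200 without the filter and 43 to 233 without one series. The count for WC against the controls was 5, and 17 without the replicate block, 23 without the filter and 2 to 343 without one series. The causes were not tested. Signal over background was not analysed here, and motifs of promoters were not run.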

Other observations

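The 5 series did not contribute alike. Differences between hours 22 and 14 of series 1 correlated with those of the other series with r of 0.0521 to 0.17 over probe sets, beside 0.128 for series 2 and 3 and 0.445 for series 3 and 4, and leaving out series 1 raised the called probe sets from 91 to 305, of which 82 were among the 91. The floor of the arrays moved between the 2 hours by 0.0355 in series 1, 0.0416 in series 2, 0.105 in series 3, 0.1 in series 4 and 0.0103 in series 6, and in series 1 its shift equals the median difference of all probe sets kept (0.0355). Of the 91 called probe sets, 25 have IDs of a kind that can match several transcripts, and 2 have no single gene symbol.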
